A study of Mus musculus with 2 samples.

Results

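Cux1, Cux2, Pou3f1, Pou3f2 and Pou3f3, transcription factors used as markers of upper cortical layers and of neurons that project through the corpus callosum, were followed from progenitors to neurons. They were taken by gene symbol, and all 5 were found among the 32285 genes of the count tables. The cells came from the corticoseptal boundary, the midline tissue between cortex and septum, of mouse embryos at E16.5. The first genotype was wild type (WT), with 1 library. The other, also with 1 library, was Tcf4f/f;Emx1Cre, called cKO here: floxed Tcf4 is recombined by Cre expressed from Emx1, a gene of the dorsal telencephalic lineage. GABAergic neurons of the cortex and septum mostly come from subpallial progenitors outside that lineage. The strain and the number of embryos behind each library were not given in the sources used here.

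Cux1 and Cux2 are homeodomain proteins with cut repeats. In the cortex Cux2 marks upper-layer neurons and part of their progenitors, and both genes are known for shaping dendrites and synapses of those neurons. Pou3f1 (Oct6, SCIP), Pou3f2 (Brn2) and Pou3f3 (Brn1) are class III POU factors, and Pou3f2 and Pou3f3 are known for acting together in the production and migration of upper-layer neurons. TCF4, the factor deleted here, is a bHLH E-protein that binds the E-box CANNTG.

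The WT library held 8634 cells with a median of 9660 unique molecular identifiers (UMIs, the tags that count captured transcripts), and there were 10142 cKO cells with a median of 8152. Of the called barcodes, 23 occurred in both libraries. Levels are UMIs summed over the cells of a group, scaled to the group's total as counts per 1e6 UMIs (CPM). Neither genotype had a replicate library, so no test between genotypes was possible and no p-value was computed. Every 95% interval covers counting error only, as exact Poisson for a level, conditional binomial for a ratio and Clopper-Pearson for a share of cells. Every ratio is cKO over WT and rests on the same pair of libraries.

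Cells were grouped with the 5 genes kept out of the clustering. Cluster 6 formed the intermediate progenitors (Eomes, Neurog2 and Neurod4 among its leading genes), with 472 WT and 682 cKO cells. Cluster 15, led by Neurod4, Eomes and cell cycle genes, had 281 WT and 182 cKO cells and took no class name because its markers lay between cycling and intermediate progenitors. Cluster 0, led by Epha3, Neurod1, Slc17a6, Unc5d and Nhlh1, was the glutamatergic cluster with many cells of both genotypes, 784 WT and 1115 cKO. The other glutamatergic clusters split by library: cluster 5 had 1225 WT and 0 cKO cells, cluster 4 had 29 and 1267, and cluster 11 had 4 and 774. Where a cluster comes almost wholly from 1 library, library and cell type cannot be told apart. Genotypes were therefore set side by side first in clusters 15, 6 and 0. Even in cluster 0, 84.4% of a cell's nearest neighbours came from its own library, against 66.5% in cluster 6 and 62.3% in cluster 15. Median depths in cluster 0 were 8635 UMIs for WT and 6572 for cKO. With weak edges of the neighbour graph pruned, Epha3 and Neurod1 were leading genes of an unnamed cluster with 99 WT and 913 cKO cells. They also led a cluster named intermediate progenitors, with 595 and 746 cells. Cluster 0 may thus hold a different mix of cells in each library. Tcf4 itself stood at 2622 CPM for WT against 1533 CPM for cKO intermediate progenitors, and at 2994 and 2017 CPM in cluster 0. UMIs tag the 3' end of transcripts, so they do not by themselves show the deleted part of the gene.

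On the genome (mm10, GENCODE vM21), Pou3f1 lay at chr4:124656807-124660655 on the plus strand and Pou3f2 at chr4:22482780-22488366 on the minus strand. Pou3f3 lay at chr1:42695768-42703176 on the plus strand. Each of these 3 had 1 annotated transcript of 1 exon. Cux2 spanned chr5:121856366-122050102 and Cux1 chr5:136248135-136567490, both on the minus strand. The 9 coding transcripts of Cux1 ended at 7 different 3' positions up to 65.1 kb apart, and the 5 of Cux2 at 5 positions up to 31.1 kb apart. The UMIs of either gene may thus come from several isoforms. On the opposite strand Gm2164 overlapped Pou3f1, Gm3970 and Gm15637 overlapped Cux2, and Gm16599 overlapped Cux1. On the same strand A430110C17Rik, Mir721 and Gm38082 overlapped Cux1, and AC122898.1 overlapped Pou3f3. The strand setting of the counting was not given in the sources used here.

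Windows from 250 bases before to 50 bases after the start were available from RefSeq (GRCm38.p6) for 4 of the 5 genes; Pou3f1 had no entry. They are shown for Cux2, which has 2 annotated starts, and for the neighbours in family Pou3f2 and Pou3f3, because TCF4 binds E-boxes and because Cux2 and Pou3f2 were higher in cKO cluster 0 by the fold used below whereas Pou3f3 was not. Capitals mark each CANNTG, a motif that reads as CANNTG on both strands. The Cux2 windows are chr5:122049802-122050101 and chr5:122047776-122048075, the Pou3f2 window is chr4:22488317-22488616, all on the minus strand, and the Pou3f3 window is chr1:42695518-42695817 on the plus strand.
Cux2, first start: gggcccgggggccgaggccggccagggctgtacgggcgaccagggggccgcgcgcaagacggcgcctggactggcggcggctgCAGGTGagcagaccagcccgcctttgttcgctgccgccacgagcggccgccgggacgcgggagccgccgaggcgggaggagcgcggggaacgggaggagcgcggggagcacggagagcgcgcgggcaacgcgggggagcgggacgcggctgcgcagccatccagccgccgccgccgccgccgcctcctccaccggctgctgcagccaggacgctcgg
Cux2, second start: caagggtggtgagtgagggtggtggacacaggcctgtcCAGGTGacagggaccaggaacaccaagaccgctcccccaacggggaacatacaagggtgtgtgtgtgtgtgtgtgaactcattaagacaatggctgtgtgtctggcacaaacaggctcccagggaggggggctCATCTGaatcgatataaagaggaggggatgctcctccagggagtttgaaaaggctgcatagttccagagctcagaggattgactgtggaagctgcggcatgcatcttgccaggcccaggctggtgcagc
Pou3f2: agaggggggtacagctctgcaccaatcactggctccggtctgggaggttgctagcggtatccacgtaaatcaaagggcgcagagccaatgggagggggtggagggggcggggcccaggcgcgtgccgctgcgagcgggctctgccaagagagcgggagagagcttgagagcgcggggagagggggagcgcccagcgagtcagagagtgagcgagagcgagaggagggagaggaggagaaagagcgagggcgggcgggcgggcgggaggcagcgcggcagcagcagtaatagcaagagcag
Pou3f3: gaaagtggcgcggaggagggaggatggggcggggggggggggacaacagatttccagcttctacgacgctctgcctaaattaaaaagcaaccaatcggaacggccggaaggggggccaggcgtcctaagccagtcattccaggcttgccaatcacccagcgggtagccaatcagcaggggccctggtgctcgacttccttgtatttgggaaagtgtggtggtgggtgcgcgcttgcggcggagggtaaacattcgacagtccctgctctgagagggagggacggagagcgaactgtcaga
The first Cux2 window held 1 match, CAGGTG, and the second held 2, CAGGTG and CATCTG. The Pou3f2, Pou3f3 and Cux1 windows held 0. Of all 32851 promoter windows from this source, 72.3% held CANNTG, 20.2% held CAGGTG or its reverse complement CACCTG, and 17.2% held CAGATG or its reverse complement CATCTG. A match gives only the letters present in a window.

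Pou3f2 and Pou3f1 were the members with higher levels in cKO at each shared stage from cycling Eomes cells to Neurod1-high neurons. At the last of these stages, cluster 0, the mix of cells may differ between the libraries. Cux2 was higher in intermediate progenitors and most clearly in cluster 0, from low WT levels. Cux1 and Pou3f3 differed little at these stages. By the fold used to call genes, 1.5 after adding 5 CPM to each level, 3 of the 5 members were higher and 0 lower in cKO intermediate progenitors, where 0.84% of 11186 genes were higher and 1.08% lower. In cluster 0 again 3 were higher and 0 lower, against 1.25% and 1.44% of 11651 genes. In cluster 15, 2 were higher and 0 lower, against 1.27% and 2.5% of 10527 genes. The median log2 ratio of the 5 members was 0.61 in intermediate progenitors, 0.89 in cluster 0 and 0.20 in cluster 15, against medians of -0.02, -0.01 and -0.02 over all genes measured.

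**Figure D1:**
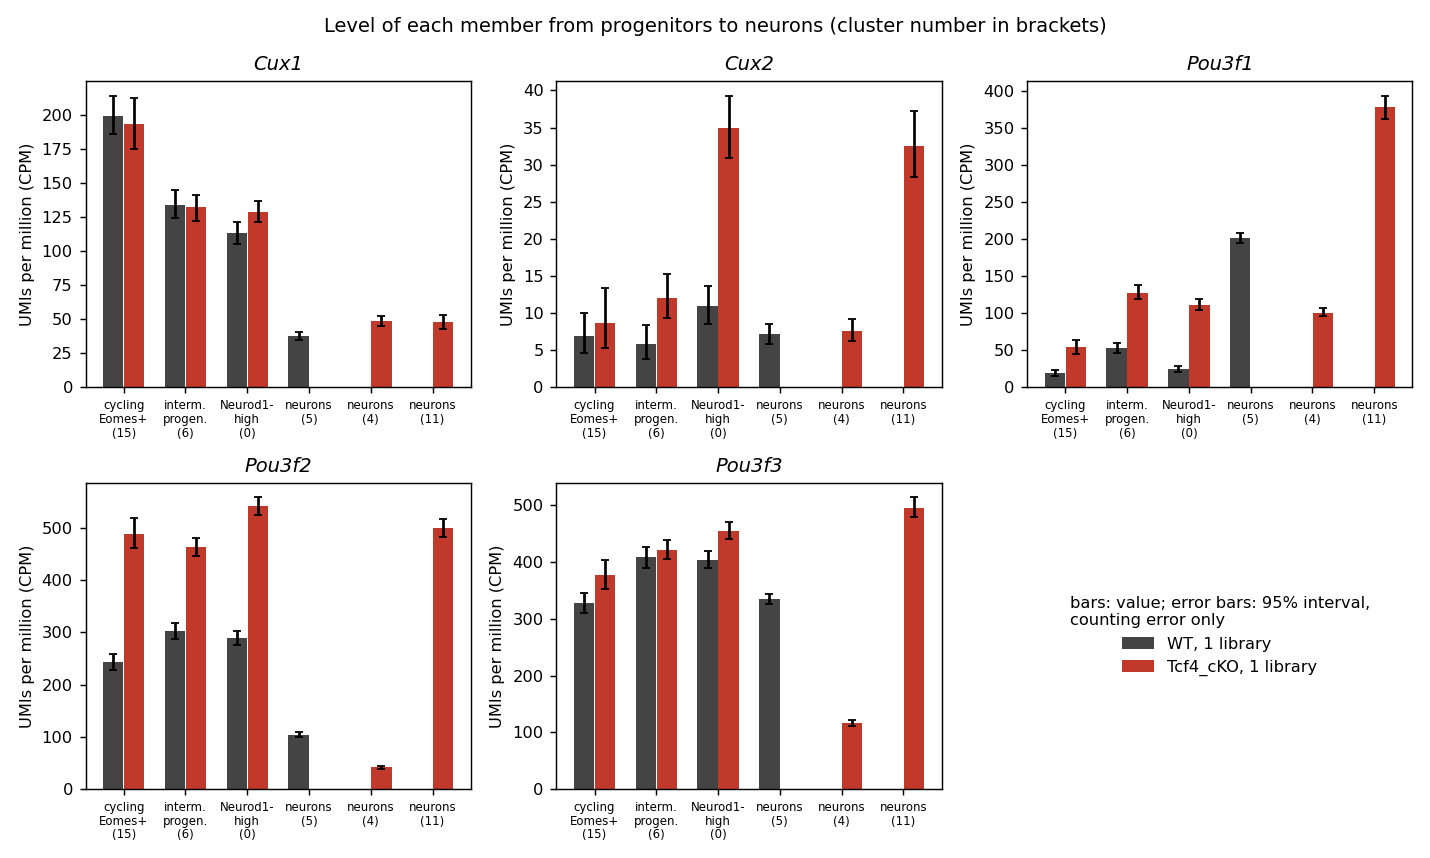
Level of each gene in CPM (vertical axis) in clusters ordered from cycling Eomes cells to glutamatergic neurons (horizontal axis), with bars for the WT (grey) and cKO (red) library and error bars for 95% Poisson intervals; groups under 50 cells are not drawn. Pou3f2 stood at 290 CPM for WT against 543 CPM for cKO in cluster 0, and only single-library clusters follow on the right.

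Pou3f2, which in this lineage is expressed from progenitors onward, stood at 243 CPM (228 to 258) for WT against 489 CPM (461 to 519) for cKO in cluster 15. In intermediate progenitors it stood at 302 CPM (287 to 319) for WT against 464 CPM (446 to 482) for cKO. In cluster 0 the levels were 290 CPM (277 to 303) and 543 CPM (526 to 559). The cKO level was thus above the WT level at all 3 stages, with no overlap of the intervals. The ratios were 2.02 (1.85 to 2.20), 1.54 (1.44 to 1.64) and 1.87 (1.78 to 1.98). In WT the 3 levels lay within 243 to 302 CPM, while in cKO the highest of the 3 was in cluster 0.

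Pou3f1, a POU factor that in the cortex is known from postmitotic neurons, stood at 19.0 CPM (15.0 to 23.8) for WT against 54.0 CPM (44.9 to 64.3) for cKO in cluster 15. In intermediate progenitors the levels were 52.9 CPM (46.5 to 59.9) and 128 CPM (119 to 138). In cluster 0 they were 24.3 CPM (20.8 to 28.3) and 111 CPM (104 to 119). WT Pou3f1 was lower in cluster 0 than in intermediate progenitors, and the cKO level was above the WT level in both. The ratios were 2.83 (2.11 to 3.82), 2.43 (2.1 to 2.82) and 4.57 (3.87 to 5.43), the last being the highest ratio of any member at the 3 stages. Its log2 ratio in cluster 0, 1.99 with the pseudocount, lay at percentile 100.0 of all genes measured after rounding. Free RNA, read from droplets of 10 to 100 UMIs, held Pou3f1 at 52.7 CPM for WT against 53.9 CPM for cKO, and made up an estimated 2.36% of UMIs in WT and 1.17% in cKO intermediate progenitors.

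Cux2 was sparse in this tissue at this age. In cluster 15 it had 28 UMIs in WT and 20 in cKO, or 6.93 and 8.70 CPM, with a ratio of 1.26 (0.671 to 2.31) that counting error does not set apart from 1. In intermediate progenitors it had 27 and 67 UMIs, or 5.78 CPM (3.81 to 8.41) and 12 CPM (9.32 to 15.3). In cluster 0 it had 75 and 272 UMIs, or 10.9 CPM (8.55 to 13.6) and 34.9 CPM (30.9 to 39.3). The cKO levels were above the WT levels in the last pair, by ratios of 2.08 (1.31 to 3.38) and 3.21 (2.48 to 4.21). Free RNA held Cux2 at 31.7 CPM for WT against 31.3 CPM for cKO, above every level named here except that of cKO cluster 0. With the estimated free RNA taken off, the Cux2 ratio was 2.24 (1.39 to 3.75) in intermediate progenitors. With each cell reduced at random to 4000 UMIs it was 3.69 (1.52 to 10.8), from 6 WT cells with a Cux2 UMI. It was lower with the UMI minimum doubled, at 1.7 (1.04 to 2.85), and with doublet calls kept in, at 1.76 (1.15 to 2.75).

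Cux1, which is expressed broadly in progenitors and neurons, went from 199 CPM in cluster 15 to 134 CPM in intermediate progenitors and 113 CPM in cluster 0 in WT. In cKO the levels were 193, 132 and 129 CPM, the same order. The ratios were 0.967 (0.859 to 1.09) in cluster 15, 0.981 (0.881 to 1.09) in intermediate progenitors and 1.14 (1.04 to 1.26) in cluster 0. Pou3f3 stood at 327 CPM for WT against 378 CPM for cKO in cluster 15, at 408 and 422 CPM in intermediate progenitors and at 404 and 455 CPM in cluster 0. Its ratios of 1.15 (1.06 to 1.26), 1.03 (0.972 to 1.1) and 1.13 (1.07 to 1.19) were all below those of Pou3f2, its partner in family.

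Shares of cells with at least 1 UMI were compared after each cell was reduced at random to 4000 UMIs and shallower cells were left out (3 of 784 WT and 14 of 1115 cKO cells in cluster 0). In cluster 0, Pou3f1 was found in 8.32% (6.48 to 10.5) of WT and 28.1% (25.4 to 30.8) of cKO cells, and without this step in 13.4% and 36.3%. Cux2 was found in 3.71% (2.50 to 5.29) and 13.8% (11.8 to 16.0), and Pou3f2 in 53.0% (49.4 to 56.6) and 72.8% (70.1 to 75.5). Pou3f3 was found in 75.0% and 77.0%, and Cux1 in 39.6% and 37.5%, with overlapping intervals in both genes. Microglia, a class of another lineage taken as background, gave 6.52% for Pou3f1 in WT (interval 1.37 to 17.9) and 9.43% (3.13 to 20.7) in cKO, at median depths of 9337 and 7920 UMIs per cell. The WT share of Pou3f1 in cluster 0 lay within the microglial interval, which rests on 46 WT cells, and the cKO share lay above both microglial intervals. In astroglia, with 1727 WT and 1742 cKO cells at median depths of 9412 and 8097 UMIs before reduction, Pou3f1 was found in 2.03% (1.42 to 2.81) and 3.62% (2.79 to 4.60), below the shares of either library in cluster 0. Pou3f2 in microglia was found in 6.52% and 5.66% of cells and Cux2 in 0 of 46 WT cells and 1.89% of 53 cKO cells. A count of 0 there allows up to 6.52% of cells with a Cux2 UMI at that depth (3 of 46), which is no limit on cells that express the gene.

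**Figure D2:**
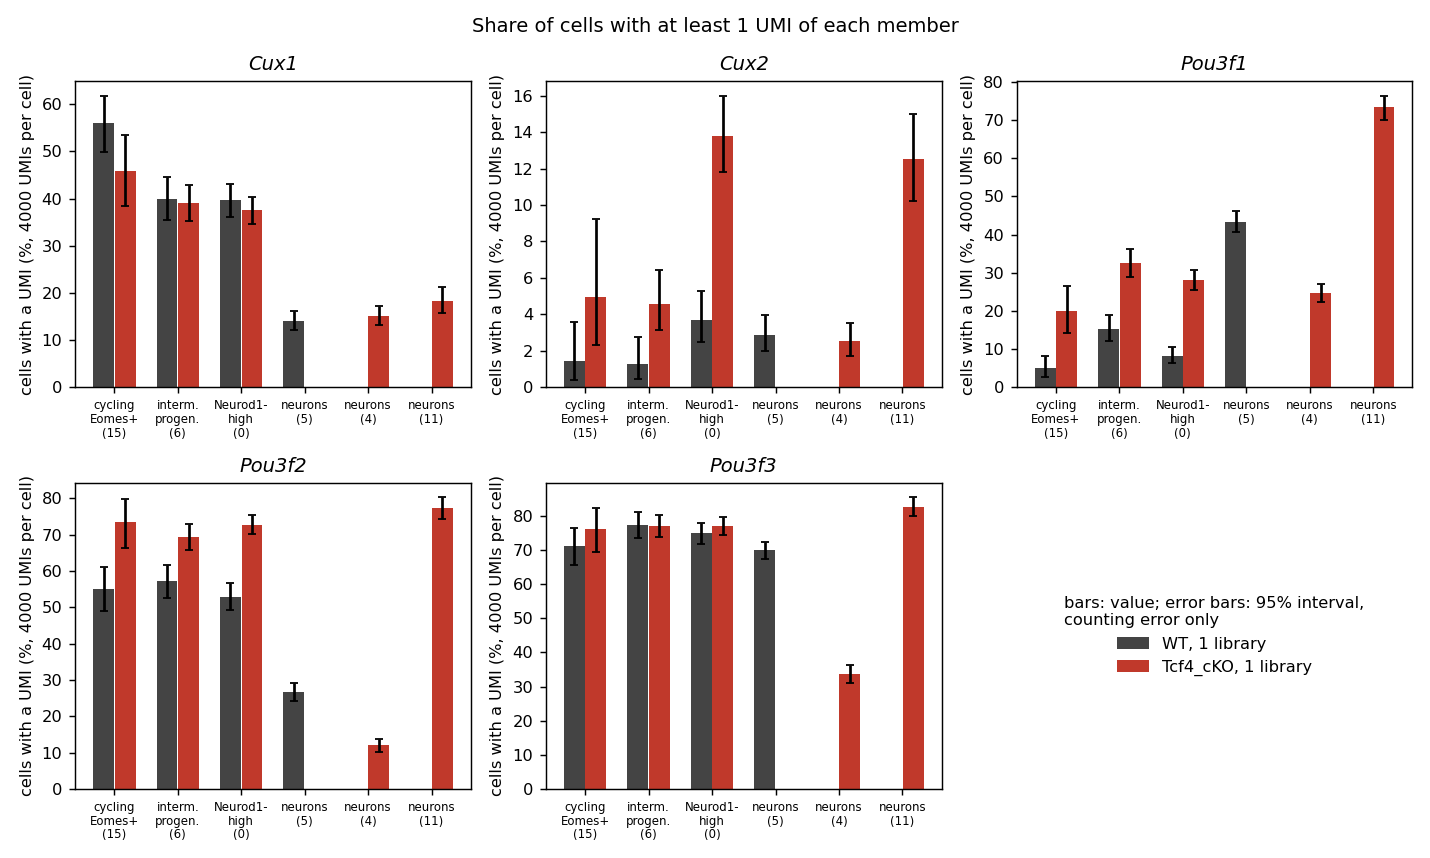
Share of cells in percent with at least 1 UMI of each gene (vertical axis) after reduction to 4000 UMIs per cell, by cluster (horizontal axis) and library (grey WT, red cKO), with 95% Clopper-Pearson intervals. Pou3f1 was found in 8.32% of WT and 28.1% of cKO cells of cluster 0, and in 73.3% of cKO cells of cluster 11.

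In clusters 0, 6 and 15 a larger share of cKO than of WT cells held several members at once. Higher shares of single genes raise this share by themselves, and joint detection beyond that was not tested. In cluster 0, 25.0% of WT and 43.6% of cKO cells held UMIs of 3 or more of the 5 genes, in intermediate progenitors 26.8% and 43.0%, and in cluster 15 27.4% and 38.1%. In GABAergic neurons the shares were 19.3% and 18.5%. Among the single-library clusters they were 18.1% in WT cluster 5, 6.24% in cKO cluster 4 and 57.8% in cKO cluster 11. Among cKO cells of cluster 0, Pou3f1 was found in 35.4% (32.1 to 38.8) of the 802 cells with Pou3f2 UMIs and in 8.36% (5.48 to 12.1) of the 299 without. In WT the shares were 11.4% (8.46 to 14.8) of 414 cells and 4.90% (2.93 to 7.64) of 367. Cux2 followed the same pattern in cKO, at 17.2% of cells with and 4.68% of cells without Pou3f2 UMIs, against 5.56% and 1.63% in WT. The pattern of Pou3f1 was not particular to cluster 0. In intermediate progenitors it was found in 41.9% of cKO cells with and 11.1% without Pou3f2 UMIs, and in 20.1% and 8.96% in WT. In GABAergic neurons the shares were 16.6% and 9.83% in cKO and 26.4% and 6.03% in WT. Cells with more of one gene's UMIs may differ from the others in other ways, which was not tested.

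Markers of maturation also differed between the libraries in cluster 0. Eomes, the factor of intermediate progenitors, stood at 334 CPM for WT against 407 CPM for cKO, and Neurod2 and Neurod6, factors of differentiating glutamatergic neurons, at 484 and 718 and at 880 and 1199 CPM. Id2, an inhibitor of bHLH factors, stood at 384 and 92.2 CPM. The summed level of 9 glutamatergic markers was 2211 CPM in the WT cells and 2868 CPM in the cKO cells, with 2 of 9 past the fold upward. The summed level of 10 GABAergic markers was 51.9 and 83.7 CPM, with 1 of 10 past the fold upward, and that of 9 cycling markers 51.7 and 53.2 CPM, with 0 of 8 measured past it. In intermediate progenitors the glutamatergic sums were 894 and 1151 CPM and the GABAergic sums 159 and 181 CPM, with 1 of 8 measured past the fold upward in each list. In cluster 15 the glutamatergic sums were 828 and 1067 CPM, with 2 of 6 past the fold upward, and the GABAergic sums 138 and 215 CPM, with 4 of 8. The cycling sums there were 3916 and 4892 CPM, with 0 of 9 past the fold, and the astroglial sums 1580 and 1967 CPM, with 1 of 12 upward and 1 downward. The part of these differences in the member ratios of the same cells was not tested. Cells of cluster 0 were also split, after the data were seen, into those with Eomes UMIs (379 WT and 653 cKO cells at 4000 UMIs) and those without (402 and 448). Pou3f1 had ratios of 4.52 (3.16 to 6.67) with and 4.72 (3.48 to 6.52) without Eomes UMIs, Pou3f2 of 1.81 (1.63 to 2.0) and 1.94 (1.73 to 2.18), and Cux2 of 3.73 (2.11 to 7.1) and 3.96 (2.32 to 7.15). A cell without an Eomes UMI may still express the gene.

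**Figure D3:**
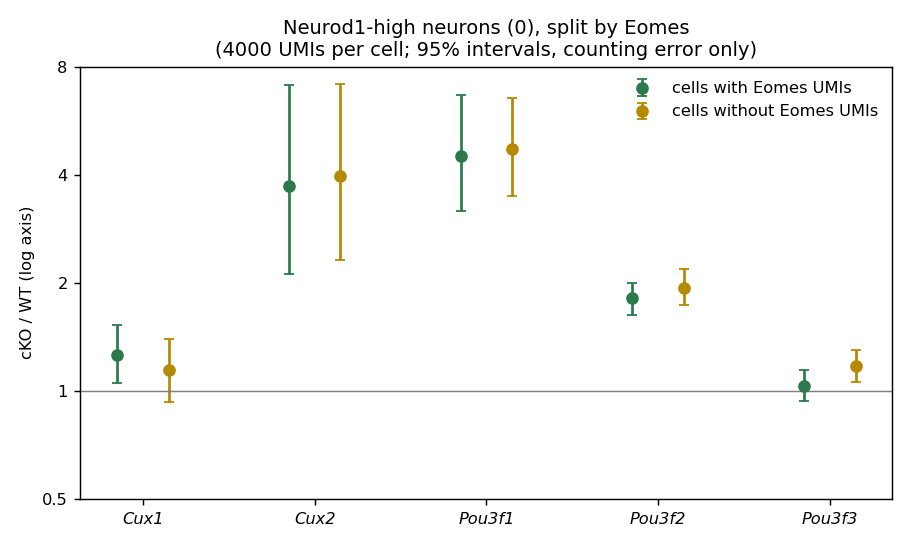
Ratio of cKO over WT levels (vertical log axis) of each gene in cells of cluster 0 with (green) and without (yellow) Eomes UMIs, after reduction to 4000 UMIs per cell, with 95% intervals; the line marks 1. The ratios for Pou3f1 were 4.52 with and 4.72 without Eomes UMIs.

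In the other glutamatergic neurons the libraries lay in different clusters, and the members differed widely between those clusters. In WT cluster 5, led by Cck, Cntn2 and Opcml, Pou3f1 stood at 202 CPM (195 to 209), Pou3f2 at 104 CPM (99.4 to 110), Pou3f3 at 335 CPM (326 to 344), Cux1 at 37.6 CPM (34.7 to 40.8) and Cux2 at 7.16 CPM (5.90 to 8.60). In cKO cluster 4, led by Mef2c, Rgs4 and Crym, Pou3f1 stood at 101 CPM (96.0 to 107), Pou3f2 at 41.4 CPM (38.0 to 44.9) and Pou3f3 at 116 CPM (111 to 122). In cKO cluster 11, with Rspo3 and Robo2 among its leading genes, they stood at 378 CPM (363 to 394), 500 CPM (483 to 518) and 496 CPM (479 to 514), and Cux2 at 32.5 CPM (28.3 to 37.2). Cluster 11 was thus high in all 3 POU genes and in Cux2, and cluster 4 was low in the POU genes. Bcl11b, a factor of subcerebral projection neurons, stood at 369 CPM in cluster 11, 852 CPM in cluster 5 and 1158 CPM in cluster 4.

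Over the whole glutamatergic class, cluster 0 included, Cux1 stood at 60.6 CPM for WT against 70.9 CPM for cKO, a ratio of 1.17 (1.09 to 1.25), and Cux2 at 8.33 against 20.9 CPM, a ratio of 2.51 (2.13 to 2.97). Pou3f1 stood at 147 against 168 CPM, a ratio of 1.14 (1.09 to 1.19), Pou3f2 at 160 against 287 CPM, a ratio of 1.79 (1.72 to 1.86), and Pou3f3 at 353 against 298 CPM, a ratio of 0.845 (0.819 to 0.871). Here 2 of the 5 members were higher by 1.5-fold and 0 lower, against 1.25% and 1.32% of 13899 genes. These values combine clusters of different make-up: with weak edges of the neighbour graph pruned, the class held other clusters, and Cux1 was 0.426, Cux2 0.643, Pou3f1 3.36, Pou3f2 1.12 and Pou3f3 0.619. In cluster 0 alone Pou3f1 was 4.57 and Pou3f3 1.13. Weighting equally the clusters that both libraries hold gave 0.963 for Cux1, 1.78 for Cux2, 3.46 for Pou3f1, 1.63 for Pou3f2 and 1.13 for Pou3f3.

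Over clusters 4, 5 and 11 together almost all WT cells came from cluster 5 and all cKO cells from clusters 4 and 11. The ratios thus set different clusters side by side. Pou3f2 stood at 104 CPM in these WT cells, against 41.4 CPM in cKO cluster 4 and 500 CPM in cKO cluster 11. Pooled, Pou3f2 had a ratio of 1.80 (1.7 to 1.91), Cux2 2.14 (1.73 to 2.67) and Cux1 1.26 (1.14 to 1.4). Pou3f1 had 0.951 (0.907 to 0.997) and Pou3f3 0.717 (0.689 to 0.746). Of the members 2 were higher and 0 lower by the fold used to call genes, against 1.65% and 1.73% of 13314 genes.

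**Figure D4:**
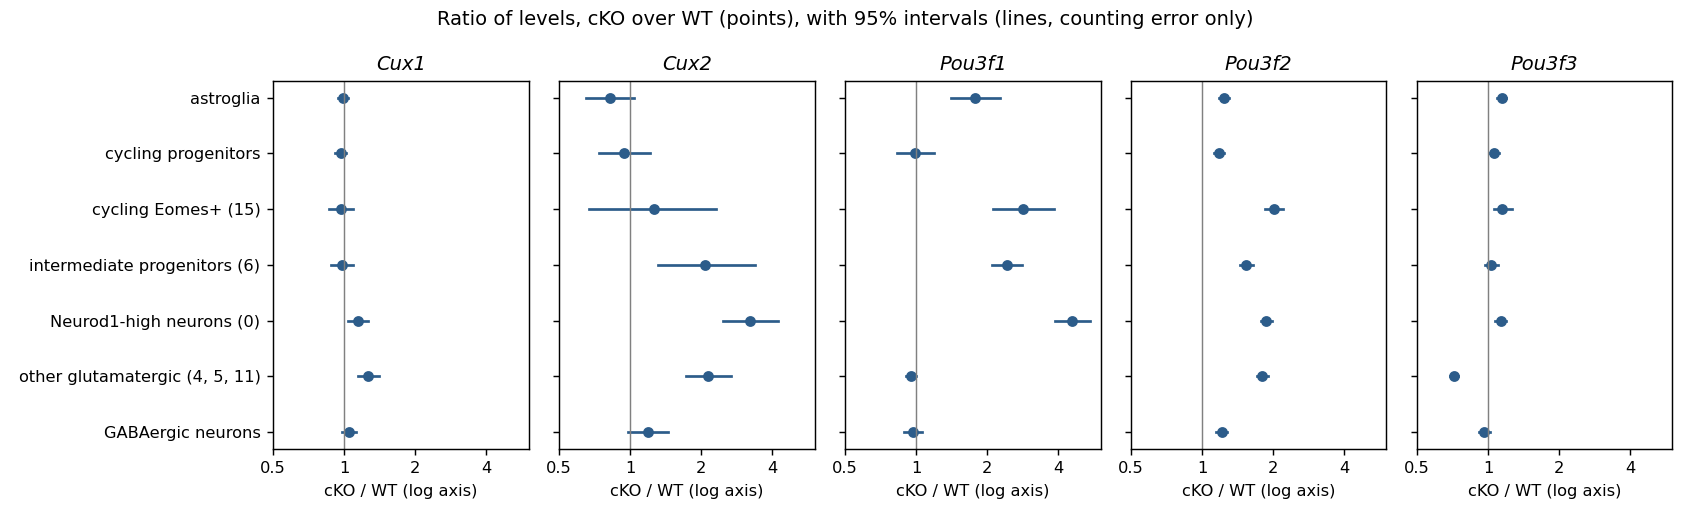
Ratio of cKO over WT levels (log axis, points) of each gene by group of cells, with 95% intervals (lines). Pou3f2 lay above 1 in every group drawn, from 1.18 in cycling progenitors to 2.02 in cluster 15. Pou3f1 lay near 1 in GABAergic neurons and cycling progenitors as whole classes. The GABAergic values include cluster 8, where Pou3f1 had a ratio of 0.551 and Pou3f2 of 0.768, and cKO cells outnumbered WT cells.

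No member passed the fold in GABAergic neurons, astroglia or cycling progenitors taken as whole classes. In GABAergic neurons (1378 WT and 1572 cKO cells) Pou3f2 stood at 211 and 255 CPM, a ratio of 1.21 (1.14 to 1.28), Pou3f1 at 90.3 and 87.6 CPM, a ratio of 0.970 (0.888 to 1.06), and Cux2 at 16.6 and 19.8 CPM, a ratio of 1.19 (0.975 to 1.45). In this class 0 of the 5 members were past the fold, against 1.47% of 12862 genes higher and 0.218% lower. The class was uneven, and its make-up differed between the libraries. Cell numbers were 309 WT against 664 cKO in cluster 8, led by Lhx8 and Lhx6. They were 591 against 460 in cluster 7 and 478 against 448 in cluster 9. In cluster 8 Pou3f1 stood at 255 and 140 CPM, a ratio of 0.551 (0.493 to 0.615). Pou3f2 stood there at 517 and 397 CPM, a ratio of 0.768 (0.715 to 0.825). Pou3f3 stood at 297 and 228 CPM, a ratio of 0.767 (0.698 to 0.844). Pou3f1 had a ratio of 0.980 (0.841 to 1.14) in cluster 9, and only 4 WT and 18 cKO UMIs in cluster 7. The Pou3f1 ratio of 0.970 for the class thus does not show an unchanged level within its clusters. Pou3f2 had ratios of 1.12 (1.02 to 1.23) in cluster 9 and 1.26 (1.01 to 1.59) in cluster 7. Among these clusters its level was highest in cluster 8, where cKO cells outnumbered WT cells. The Pou3f2 ratio of 1.21 for the class thus does not show a higher level within each cluster. In astroglia 0 of 5 passed the fold, against 0.255% of 14099 genes higher and 0.645% lower, and Pou3f1, at 6.71 and 12 CPM, had a ratio of 1.78 (1.41 to 2.27). In cycling progenitors 0 of 5 passed, against 0.247% of 13366 genes higher and 0.479% lower. Single clusters of astroglia and cycling progenitors differed as well. Pou3f2 had ratios of 1.46 (1.34 to 1.59) in cycling cluster 10, 1.2 (1.06 to 1.36) in cluster 14 and 1.05 (0.972 to 1.13) in Gsx2-led cluster 12. In astroglia it had 1.22 in cluster 1 and 1.41 in cluster 2. Pou3f1 had 1.22, 1.61 and 0.901 in those cycling clusters, and 2.18 and 1.48 in those astroglial clusters. Cajal-Retzius cells, early neurons of the marginal zone, held 0 Pou3f1 UMIs in both libraries, and 3 counts, the limit that a count of 0 allows, come to 3.35 CPM of the WT and 4.51 CPM of the cKO class total.

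Across classes in WT, Pou3f2 and Pou3f3 were highest in intermediate progenitors and Pou3f1 in glutamatergic neurons, and each of these differed from the next class beyond counting error. Cux1 was highest in cycling progenitors, at 215 CPM, and lowest in glutamatergic neurons, at 60.6 CPM. Cux2 was at most 16.6 CPM (14.3 to 19.2) in any named class in WT, in GABAergic neurons. No neighbours in the order of its 8 classes differed beyond counting error, but some of these classes held few Cux2 UMIs. Classes further apart did not overlap: GABAergic neurons lay above astroglia at 10.3 CPM (8.87 to 11.9) and glutamatergic neurons at 8.33 CPM (7.19 to 9.59). In cKO the highest Cux2 class was glutamatergic neurons at 20.9 CPM, against 19.8 CPM in GABAergic neurons, a gap within counting error. The highest Cux1 and Cux2 levels of these groups were in cluster 17, led by Sst, Npy and Npas1, where Cux1 stood at 304 and 318 CPM and Cux2 at 293 and 309 CPM. Cux2 is among the leading genes of that cluster but was not used to form it.

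Over 45 profiles (clusters by library, with at least 20 cells, 7578 genes compared), the genes most like each member by Pearson r of log2(CPM + 5) were Npas3 (0.73), Sox2 (0.73) and Sox6 (0.72) for Cux1, and Neb (0.87), Dlgap2 (0.85) and Npas1 (0.84) for Cux2. For Pou3f1 they were Mn1 (0.78), Plxna2 (0.74) and Enc1 (0.71). For Pou3f2 they included Pantr1 (0.87) and Pou3f3 (0.83), and for Pou3f3 Pantr1 (0.92), C130071C03Rik (0.91) and Sfpq (0.88). These are descriptions, since profiles share 2 libraries and their depth. Pantr1, a long noncoding RNA transcribed from the opposite strand, starts 925 bases from the start of Pou3f3. It stood at 836 CPM for WT against 992 CPM for cKO intermediate progenitors and at 623 and 679 CPM in cluster 0, ratios of 1.19 and 1.09. Among pairs of members, Pou3f2 and Pou3f3 were most alike (0.83), then Pou3f1 and Pou3f2 (0.65), while Cux1 and Cux2 had 0.46.

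**Figure D5:**
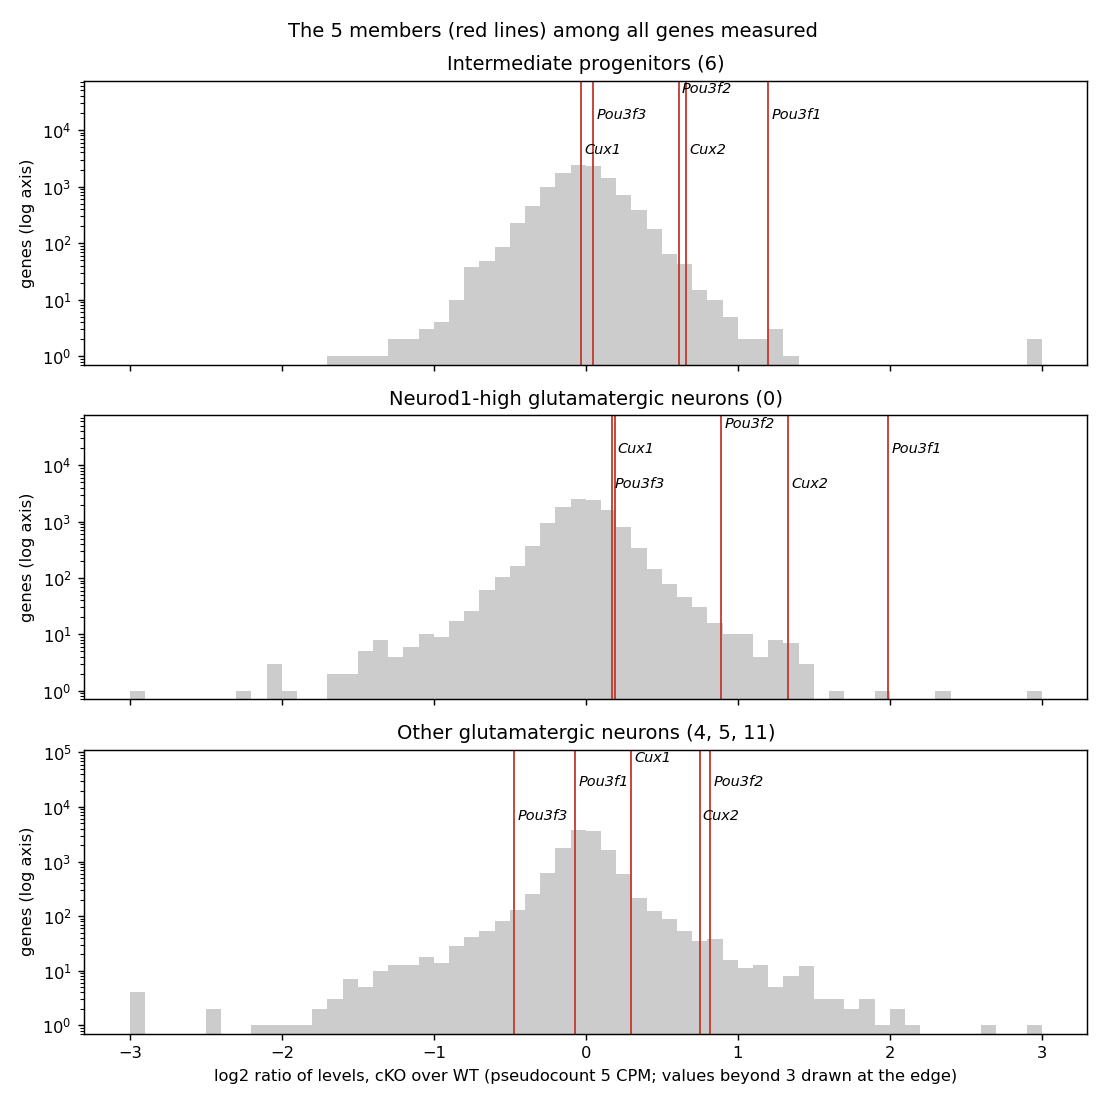
Numbers of genes (vertical log axis) by log2 ratio of cKO over WT levels with a pseudocount of 5 CPM (horizontal axis) in intermediate progenitors, cluster 0 and the other glutamatergic neurons, with red lines for the 5 members. Pou3f1, Cux2 and Pou3f2 lie in the upper tail in cluster 0 at 1.99, 1.33 and 0.89, against 0.19 for Cux1 and 0.17 for Pou3f3, at percentiles 85.8 and 84.0 of the genes measured.

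Other genes of the same programmes did not move as a block. The counts below stand against 1.25% of all genes measured higher and 1.44% lower in cluster 0. In intermediate progenitors these shares were 0.84% and 1.08%. Of 21 further callosal and upper-layer genes, 16 were measured in cluster 0, of which 3 were higher in cKO, Mef2c (ratio 2.12), Epha3 (1.91) and Ptn (1.68), and 1 was lower, Nrp1 (0.619), with a median log2 ratio of 0.24 against -0.01 over all genes. Nrp1, a semaphorin receptor of callosal axons, stood at 74.9 and 46.3 CPM. In intermediate progenitors 1 of 16 was higher, Epha3 (1.77), and 0 were lower, with a median of 0.17. Of 19 deep-layer genes, 13 were measured in cluster 0, where Foxp2 (1.57) was higher and Rprm (0.490) lower, with a median of 0.01. Of 12 other POU genes 6 were measured in cluster 0, and Pou3f4, the class III gene that is no member here, was the 1 past the fold, at 8.84 and 16.4 CPM with a ratio of 1.86 (1.36 to 2.57). In intermediate progenitors Pou3f4 had 59 and 103 UMIs and a ratio of 1.46 (1.05 to 2.05). Of 2 other cut-class genes measured in intermediate progenitors and in cluster 0, 0 passed the fold in either.

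Of 13 genes of the neurogenic sequence, all measured in intermediate progenitors, 2 were higher in cKO and 1 lower, against 0.84% and 1.08% of all genes. Neurod2, a factor of differentiating neurons, stood at 131 and 249 CPM (ratio 1.90), Neurog1, a proneural factor, at 7.71 and 14.4 CPM (1.86), and Neurod4, another proneural factor, at 109 and 59.2 CPM (0.542). Their median log2 ratio was 0.19. In cluster 0 Neurog2 alone of 12 measured was past the fold, at 110 and 172 CPM. Most cells of the whole glutamatergic class lay in clusters that came almost wholly from 1 library, so ratios there largely set different clusters side by side. Over that class 1.25% of all genes measured were higher and 1.32% lower. There 2 of 20 further callosal and upper-layer genes were higher, Mef2c (3.60) and Epha3 (2.10), and 3 were lower, Nectin3 (0.389), Nrp1 (0.554) and Lpl (0.0974), with a median log2 ratio of -0.05. Of 17 deep-layer genes 4 were higher there, Etv1 (2.97), Rprm (2.15), Zfpm2 (1.91) and Foxp2 (1.87), and 0 lower, with a median of 0.14. In cluster 0 alone these 4 genes had ratios of 1.68, 0.490, 0.930 and 1.57, in that order. In intermediate progenitors 0 of 12 deep-layer genes were higher and 1 lower, Rprm (0.455). Rprm was thus lower in cKO in intermediate progenitors and cluster 0 and higher over the whole glutamatergic class.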

How the data were processed

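The authors deposited raw UMI counts per gene and barcode, unnormalized and with empty droplets, and per the file headers the pipeline was Cell Ranger 7.1.0. Version 2.1.1 of that tool and build mm10 are listed in the submitters' processing notes. The intron and strand settings were not given in the sources used here. Per the labels' protocols, dissected slices were enzymatically dissociated and libraries followed the 10x Genomics 3' protocol.

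Barcodes were called cells at or above the percentile 99 of the 5000 largest totals divided by 10 (3348 UMIs in WT, 3341 in cKO), if they also had 1000 UMIs, 500 genes and no more than 10% of UMIs from mitochondria. Doublets called by scrublet in scanpy 1.11.5 at an expected 6% (330 WT, 526 cKO) were removed. The libraries held 116998498 and 121321247 UMIs. Cells of both libraries were clustered jointly on log counts of 2000 variable genes, without the 5 members and Tcf4, 30 components, 15 neighbours and Leiden at resolution 1. Among 5 versions of scaling and neighbour graph, 1 was chosen after cluster sizes, names and leading genes had been seen, but not member values. A cluster was named from marker lists when at least 3 markers were 1.5-fold above other cells and present in 20% of its own, and 1 or more was among its 10 leading genes; the last condition was added after leading genes had been seen. Unnamed clusters held 21.6% of WT and 17.2% of cKO cells. The members and lists were chosen with earlier results of these data known.

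Counts were summed per library and group. Genes with at least 20 UMIs over both libraries were measured, with a pseudocount of 5 CPM for log2 ratios. Named genes were the 5 members, the 3 genes most alike to each by Pearson r among genes with at least 50 CPM in a profile, and members of the gene lists; some of these genes are not reported here and were left out of the list counts. The split by Eomes UMIs was added after the data were seen. The calculation of ratios and intervals was run on simulated Poisson counts, which cannot test for variation between cells, embryos or libraries. Alternatives covered doublets, depth, free RNA, resolution, unnamed cells, cluster weights, the neighbour graph and cluster 0 alone. Free RNA shares were estimated from haemoglobin, leaving out cells over 0.1% haemoglobin UMIs.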

Additional observations from a re-analysis of the deposited data

Results flagged for a closer look

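The ratio of Pou3f3 lay on opposite sides of 1 in different classes, 1.14 in astroglia and 1.06 in cycling progenitors against 0.845 in glutamatergic neurons. The difference between classes was not tested, since each rests on 1 library per genotype, and the glutamatergic value mixes clusters that hold cells of 1 library.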

How the results depend on the processing

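In intermediate progenitors the ratios of Cux2, Pou3f1 and Pou3f2 stayed above 1 under the alternatives run. With weak edges of the neighbour graph pruned, this class was drawn differently. It then included a cluster of 595 WT and 746 cKO cells with Slc17a6, Epha3 and Neurod1, leading genes of cluster 0, among its own leading genes. Cux2 ranged from 1.7 with the UMI minimum doubled to 3.69 with cells reduced to 4000 UMIs. Pou3f3 was 1.03 (0.972 to 1.1), and the intervals computed for its alternatives included 1 except at resolution 0.5, at 1.07 (1.01 to 1.13). Cux1, at 0.981, was 1.04 with cells reduced to 4000 UMIs, and its interval included 1 in both. In glutamatergic neurons as a whole the ratios depended on which clusters and cells entered. With cluster 0 alone, Cux2 was 3.21, Pou3f1 4.57, Pou3f2 1.87 and Pou3f3 reversed to 1.13. With the clusters that both libraries hold weighted equally (0 and 4, the latter with 29 WT cells), Cux1 reversed to 0.963 and Pou3f3 to 1.13, and Cux2, Pou3f1 and Pou3f2 were 1.78, 3.46 and 1.63. With weak edges of the neighbour graph pruned, a version added after the data were seen in which the named class held 594 WT and 783 cKO cells of different clusters, Cux1 reversed to 0.426 and Cux2 to 0.643, and Pou3f1, Pou3f2 and Pou3f3 were 3.36, 1.12 and 0.619. With the UMI minimum doubled, the 5 ratios were 1.02, 1.92, 1.02, 1.32 and 0.725 for Cux1, Cux2, Pou3f1, Pou3f2 and Pou3f3. With cells reduced to 4000 UMIs, Cux1, Cux2, Pou3f1 and Pou3f3 were 1.03, 3.12, 1.32 and 0.903. The causes were not tested beyond the make-up of the class. No paired analysis was possible because each genotype has 1 library. Low UMI counts limit the precision for Cux2, and differences between embryos cannot be told apart from genotype.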
